A study of Rattus norvegicus with 36 samples.

Results

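Mammary cancers that arose after gamma rays and PhIP were set against mammary cancers that arose after gamma rays without a chemical. Both groups were chosen by their sample labels. They hold 4 and 4 of the 36 arrays of the series, which also covers cancers after PhIP alone, after the alkylating agent MNU with and without gamma rays, spontaneous cancers and normal mammary tissue. All rats were female and of the outbred Sprague-Dawley stock, bought at 5 weeks of age. The cancers of the first group came from rats that received 1 Gy of whole-body gamma rays from a caesium source at 7 weeks of age. From 3 days later these rats were given PhIP hydrochloride by gavage, 40 mg/kg on each of 5 days a week for 2 weeks. The cancers of the second group came from rats that received the 1 Gy alone. Every rat was moved at 9 weeks to a purified diet holding 23.5% corn oil, so both groups share the irradiation and the high-fat diet. All 8 cancers carried no H-ras mutation per the labels. The only other PhIP group without H-ras mutation holds 3 cancers after PhIP alone, and these were compared with 3 spontaneous cancers of untreated rats. Whether the cancers of a group grew in separate rats is not stated, nor is any batch, so p-values measure only the spread between these samples. Another irradiated group without H-ras mutation, 4 cancers after 1 Gy and then 40 mg/kg of MNU (methylnitrosourea) by injection 3 days later, served to set the added PhIP beside another added carcinogen. As far as the labels say, the groups of the main comparison differ in PhIP treatment alone.

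PhIP is a heterocyclic amine formed when meat and fish are cooked. Cytochrome P450 enzymes hydroxylate it, acetyl- and sulfotransferases turn the product into a reactive ester, and the ester forms bulky adducts on guanine that nucleotide excision repair removes. Gamma rays break both strands of DNA, and these breaks are repaired by end joining and recombination. Both agents are mammary carcinogens in the rat. The arrays hold established cancers, so they report the state of the tumours and not the response of the gland to the treatment.

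Expression is given as log2(intensity + 42.8) of 1 probe set per gene for 11773 genes, differences are radiation plus PhIP minus radiation, and ± on a difference is its SE. The 8 arrays had similar quality measures. The median intensity ran from 192.1 to 209.8 on the radiation plus PhIP arrays and from 193.2 to 203.8 on the radiation arrays. The ratio of the 3′ to the 5′ control probes of hexokinase, a sign of RNA integrity, ran from 2.06 to 2.37 on the radiation plus PhIP arrays and from 2.08 to 2.76 on the radiation arrays. The correlation between arrays over all genes was 0.949 to 0.963 within radiation plus PhIP and 0.911 to 0.964 within radiation. Between the groups it was 0.920 to 0.969, so pairs across the groups correlated as closely as pairs within the radiation group. Radiation arrays 1 and 2 correlated least with the rest of their group (mean 0.929 and 0.930). The tissue label held up in both groups. The 18 luminal epithelial markers averaged 11.33 ± 0.04 (SD, n = 4) after radiation plus PhIP and 11.35 ± 0.13 (SD, n = 4) after radiation. The 3 normal tissues ran from 10.80 to 11.26, so these markers show epithelium but do not by themselves separate cancer from normal gland. The 17 adipocyte markers averaged 7.89 ± 0.05 after radiation plus PhIP and 8.18 ± 0.28 after radiation, far under the 11.11 to 11.71 of the 3 normal tissues. In these bulk samples, fewer cells of a type and less RNA per cell cannot be told apart.

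At the adjusted threshold, no gene differed between cancers after radiation plus PhIP and cancers after radiation alone. Of 11773 genes, 0 passed an adjusted p of 0.05 (limma, Benjamini-Hochberg adjustment), which is 0% of the genes, and the smallest adjusted p was 0.993. An unadjusted p under 0.05 was reached by 480 genes (4.08%), 211 of them higher (1.79%) and 269 lower (2.28%) after radiation plus PhIP. The 4 and 4 arrays did not overlap for 386 genes (3.28%), 142 higher (1.21%) and 244 lower (2.07%). The median difference over all genes was −0.018, and 45.5% of genes were higher.

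**Figure D1:**
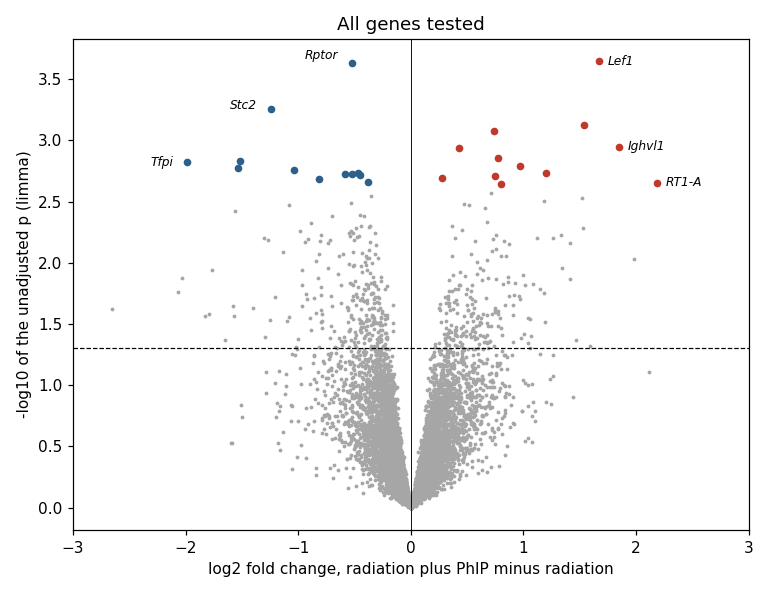
Each point is 1 of the 11773 genes tested, with its log2 fold change (radiation plus PhIP minus radiation) on the x axis and −log10 of its unadjusted limma p on the y axis. The dashed line marks an unadjusted p of 0.05. The 12 higher (red) and 12 lower (blue) genes with the smallest p are coloured, and none of them passed the adjusted threshold.

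The fit gave a bound on the size of what could have been missed. Its SE rests on a spread pooled over all 10 groups, so the bound is too narrow for genes that vary more in the groups compared. The median SE of a difference was 0.179 and the median half-width of its 95% interval was 0.366. For 10341 genes (87.8%) the whole interval lay within 1 log2 unit of no difference. For dim genes this unit stands for more than a 2-fold change in intensity, as the added constant shrinks their differences. The 95% level holds for each gene alone and not for all genes at once. For the remaining 1432 genes the interval reached further, and the fit set no such bound. An estimated difference of at least 1 log2 unit was found for 101 genes, 48 higher and 53 lower. The radiation plus PhIP cancers had the smaller spread. The median SD of a gene over the 4 arrays was 0.179 after radiation plus PhIP and 0.227 after radiation, and 36.5% of genes had the larger SD after radiation plus PhIP.

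Lef1, which encodes the DNA-binding partner of β-catenin at Wnt target genes, had the smallest p of all genes. It measured 11.25, 11.01, 11.41 and 11.58 on the radiation plus PhIP arrays, against 8.84, 9.66, 10.25 and 9.81 on the radiation arrays. All 4 radiation plus PhIP cancers lay above all 4 radiation cancers. The difference was 1.67 ± 0.40 (95% interval 0.86 to 2.48, limma adjusted p = 0.993). A second probe set of the gene gave 2.26. Leaving out any 1 of the 8 arrays kept the difference between 1.41 and 1.88.

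Over the 10 groups of the series, Lef1 had its highest mean after radiation plus PhIP, 11.31 ± 0.24 (SD, n = 4). The next groups were radiation plus MNU with H-ras mutation at 10.49 ± 0.22 (n = 5), MNU with H-ras mutation at 10.36 ± 0.34 (n = 5) and MNU without it at 10.28 ± 0.76 (n = 4). Spontaneous cancers followed at 10.27 ± 0.42 (n = 3), and neighbours in this run differed by less than their SDs. Radiation plus MNU without mutation measured 10.11 ± 0.26 (n = 4), the single mutated PhIP cancer 10.07, radiation 9.64 ± 0.59 (n = 4) and PhIP without mutation 9.03 ± 1.48 (n = 3). Normal mammary tissue was lowest at 7.53 ± 0.49 (n = 3). The lowest radiation plus PhIP cancer, at 11.01, lay above every other array of the series, of which the highest, an MNU cancer without mutation, measured 10.83. These group levels are a description, since the gene was singled out for its difference between the first groups compared.

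**Figure D2:**
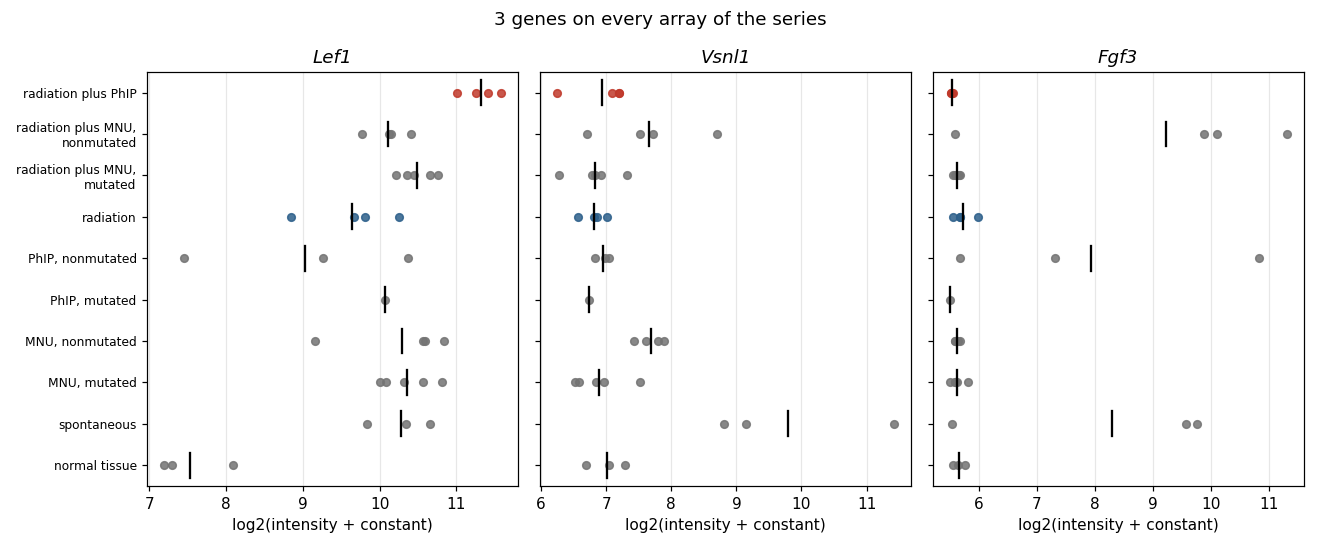
The x axes give log2(intensity + 42.8) of Lef1, Vsnl1 and Fgf3 and the rows the 10 groups of the series, 1 point per array and a bar at the group mean (red, radiation plus PhIP; blue, radiation). Lef1 is at 11.01 to 11.58 in radiation plus PhIP and at most 10.83 elsewhere, Vsnl1 is high in the spontaneous cancers, and Fgf3 is at 5.51 to 5.56 in every radiation plus PhIP cancer.

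The other 11 genes with the smallest p among those higher after radiation plus PhIP had adjusted p = 0.993 as well. In all, 9 of the 12 showed no overlap between the groups, which follows from how they were picked. Rasgrp3, a nucleotide exchange factor that activates Ras, measured 8.67, 10.72, 10.23 and 8.79 after radiation plus PhIP, against 8.12, 7.58, 8.31 and 8.25 after radiation, a difference of 1.54 ± 0.41. The radiation plus PhIP cancers formed a low pair and a high pair, both above every radiation cancer. Sdc3, the heparan sulfate proteoglycan syndecan-3, measured 9.38, 9.31, 9.23 and 9.13 after radiation plus PhIP, against 8.01, 8.28, 8.90 and 8.89 after radiation (difference 0.74 ± 0.20). Its levels were tight after radiation plus PhIP and spread after radiation. Ighvl1, an immunoglobulin heavy chain variable gene, measured 11.65, 7.76, 8.19 and 9.17 after radiation plus PhIP, against 6.90, 7.16, 7.72 and 7.60 after radiation (1.85 ± 0.51). Its difference was 1.03 without the first radiation plus PhIP array, the one with the high B and plasma cell markers described further on.

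RT1-A, a classical class I histocompatibility gene of the rat, measured 11.04, 11.54, 11.10 and 11.15 after radiation plus PhIP, against 8.38, 8.18, 11.12 and 8.40 after radiation. The third radiation cancer lay with the radiation plus PhIP cancers and the other 3 lay far lower. The difference was 2.19 ± 0.65 with that array and 2.89 without it. RT1-A belongs to a family of near-identical genes and alleles, so which member its probe set measured is uncertain.

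Among the remaining higher genes, Scx, the tendon transcription factor scleraxis, measured 7.44, 7.68, 8.23 and 7.49 after radiation plus PhIP, against 6.19, 6.63, 7.30 and 6.84 after radiation (difference 0.97 ± 0.28). Mogat1, a monoacylglycerol acyltransferase, measured 8.18, 7.83, 8.66 and 8.53 after radiation plus PhIP, against 7.13, 6.94, 6.77 and 7.55 after radiation (1.20 ± 0.35). In both genes every radiation plus PhIP cancer exceeded every radiation cancer. Acd, a subunit of the shelterin complex at telomeres, differed by only 0.28 ± 0.08, with 9.49 to 9.63 after radiation plus PhIP, against 9.19 to 9.45 after radiation. Tmem62 (0.42 ± 0.12) and Mtmr11 of the myotubularin family (0.75 ± 0.22) did not overlap either, while Spats2l (0.78 ± 0.22) did. Letm2, of a mitochondrial inner membrane family, gave 0.80 ± 0.24 with overlapping groups, and a second probe set of it gave −0.01.

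Rptor, the subunit that recruits substrates to the growth kinase complex mTORC1, had the smallest p among genes lower after radiation plus PhIP. It measured 9.14, 9.24, 8.94 and 8.89 in radiation plus PhIP cancers, against 9.64, 9.63, 9.64 and 9.41 in radiation cancers. The groups did not overlap, and the difference was −0.53 ± 0.13 (limma adjusted p = 0.993). Stc2, the secreted glycoprotein stanniocalcin-2, which oestrogen induces in human breast cancer cells, measured 6.90, 7.07, 5.74 and 6.87 after radiation plus PhIP, against 7.76, 8.34, 7.67 and 7.78 after radiation. All 4 values lay below all radiation values, with a difference of −1.24 ± 0.32. These 4 values also lay under the intensity filter of 125.8, and other processing settings gave differences of Stc2 from −1.61 to −0.79. Tesc, the calcium-binding protein tescalcin, measured 7.44, 7.14, 8.27 and 7.94 after radiation plus PhIP, against 9.11, 9.39, 9.18 and 9.17 after radiation (−1.52 ± 0.43). The 4 radiation cancers lay close together, all above the highest radiation plus PhIP cancer.

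Tfpi, the inhibitor of the tissue factor pathway of blood clotting, was the gene whose call depended on 1 array. It measured 8.87, 9.35, 9.05 and 9.01 after radiation plus PhIP, against 11.63, 12.62, 8.65 and 11.35 after radiation. The third radiation cancer was the lowest of the 8, and the other 3 radiation cancers were far above all radiation plus PhIP cancers. The difference was −1.99 ± 0.57 (adjusted p = 0.993 in limma) with that array and −2.80 without it, when Tfpi became the only gene past the threshold (adjusted p = 0.0321). A second, dimmer probe set of the gene gave −0.16. The same happened to Armcx2, an X-linked armadillo repeat gene picked here because its call changed. It measured 9.08, 9.25, 9.34 and 9.55 after radiation plus PhIP, against 7.29, 7.58, 7.80 and 10.07 after radiation, a difference of 1.12 ± 0.38 (adjusted p = 0.993). Without the fourth radiation array it was 1.75 and the only gene past the threshold (adjusted p = 0.00847). Leaving out each of the other 6 arrays gave 0 genes.

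The other lower genes covered varied functions. Fndc1, a fibronectin domain protein, measured 9.09, 8.86, 7.59 and 9.07 after radiation plus PhIP, against 10.38, 10.24, 9.25 and 10.88 after radiation (−1.54 ± 0.44). Mybpc3, a myosin-binding protein of heart muscle, measured 7.88, 7.43, 6.45 and 6.87 after radiation plus PhIP, against 8.23, 8.15, 8.23 and 8.16 after radiation (−1.03 ± 0.30). Neither gene overlapped between the groups, and the radiation levels of Mybpc3 lay close together. Ppbp, a platelet chemokine, differed by −0.59 ± 0.17, the semaphorin receptor Plxna2 by −0.45 ± 0.13 and the ubiquitin ligase Peli3 by −0.38 ± 0.11, again with no overlap. Other probe sets of Plxna2 gave −0.11 and −0.33. The hormone gene Insl3 (−0.53 ± 0.15), Ccdc124 (−0.47 ± 0.14) and 1700009N14Rikl (−0.82 ± 0.24) overlapped by 1 or more arrays. Ppbp, Insl3 and 1700009N14Rikl lay under the intensity filter of 125.8 on all 8 arrays and were kept through arrays of other groups. Other processing settings gave −0.77 to −0.35 for Ppbp, −0.69 to −0.31 for Insl3 and −1.19 to −0.44 for 1700009N14Rikl.

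**Figure D3:**
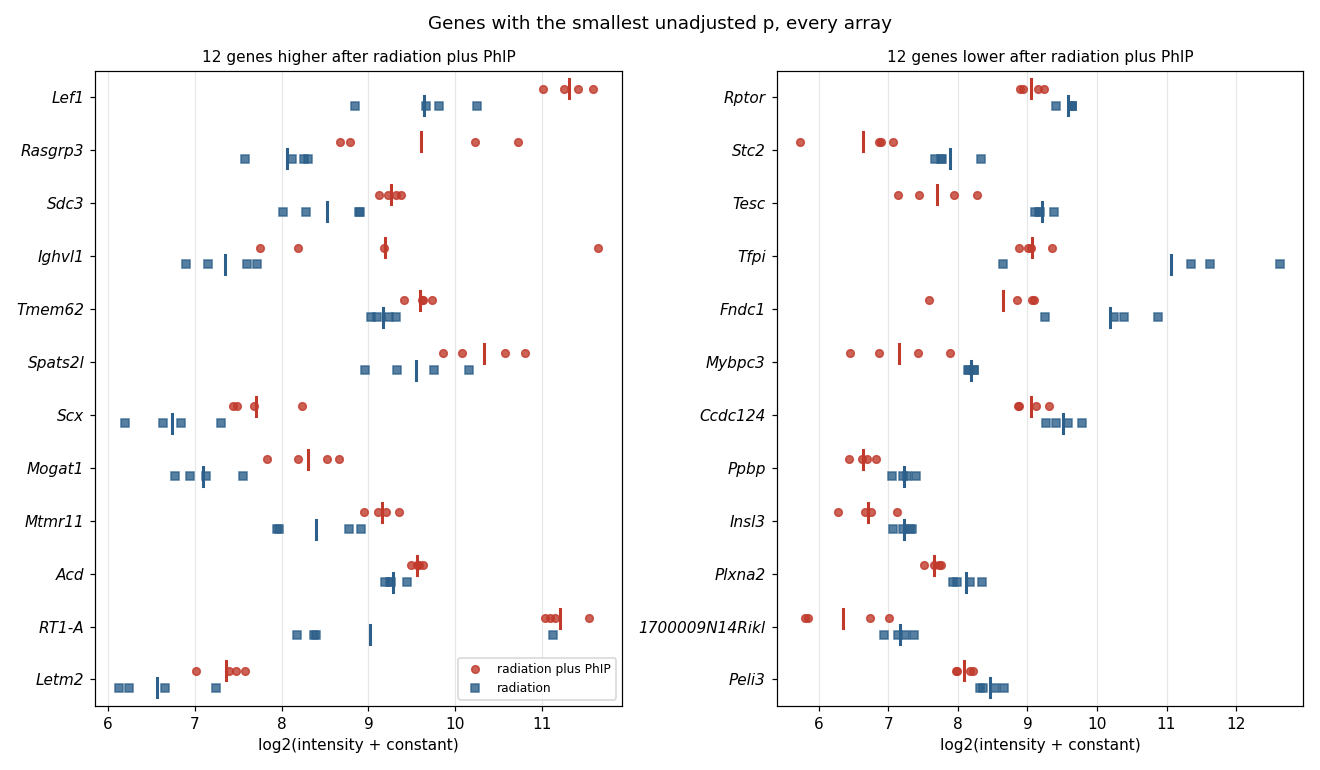
The x axis of each panel gives log2(intensity + 42.8), with 1 row per gene, the 12 genes higher (left) and the 12 lower (right) after radiation plus PhIP with the smallest unadjusted p. Red circles are the 4 radiation plus PhIP arrays, blue squares the 4 radiation arrays and bars the group means. The third radiation array stands with the radiation plus PhIP arrays for RT1-A and Tfpi.

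The largest differences among genes whose groups did not overlap were led, beside those above, by Tmem158 and Aqp5. Tmem158, first described as a gene induced in Ras-driven senescence, measured 8.76, 10.52, 8.58 and 8.56 after radiation plus PhIP, against 7.05, 7.02, 7.93 and 6.47 after radiation (1.98 ± 0.71). Its second probe set gave 0.60. Aqp5, a water channel of glandular epithelium, measured 8.09, 8.57, 8.81 and 8.51 after radiation plus PhIP, against 10.29, 12.03, 10.42 and 9.52 after radiation (−2.07 ± 0.82). The radiation cancers were widely spread and all exceeded the radiation plus PhIP cancers. Pdk4, the kinase that shuts down pyruvate dehydrogenase, measured 11.14, 9.93, 10.37 and 9.33 after radiation plus PhIP, against 8.51, 8.63, 8.29 and 8.97 after radiation (1.59 ± 0.77), and Spetex2l2 differed by 1.41 ± 0.49. Serpina3n, a protease inhibitor of the acute phase, measured 7.84, 7.62, 6.42 and 7.25 after radiation plus PhIP, against 8.18, 9.59, 8.16 and 8.30 after radiation (−1.27 ± 0.43). Hba-a3, an α-globin gene of red blood cells, measured 7.03, 8.62, 7.30 and 8.43 after radiation plus PhIP, against 9.37, 8.98, 9.29 and 8.95 after radiation (−1.30 ± 0.44). The share of blood in the pieces taken was not tested.

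Some differences of more than 1 log2 unit came from a few cancers, as in these genes picked after their values were seen. Pik3r1, the regulatory subunit of PI3-kinase, measured 6.57, 10.32, 5.81 and 5.73 after radiation plus PhIP, against 9.44, 9.54, 10.36 and 9.70 after radiation (−2.65 ± 1.11). The second radiation plus PhIP cancer lay among the radiation cancers and the other 3 were far lower. Fam111a, a protease gene, measured 12.26, 8.89, 12.31 and 11.80 after radiation plus PhIP, against 11.23, 7.92, 9.00 and 8.65 after radiation (2.12 ± 1.16). Here too the second radiation plus PhIP cancer lay with most radiation cancers. Igf2, the insulin-like growth factor, spread from 8.09 to 12.54 after radiation plus PhIP and from 10.59 to 13.41 after radiation. Such spreads were as large within the groups as between them.

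The 33 gene lists covered processes and cell types of the mammary gland, with 473 distinct members tested, and 0 of them passed the threshold. An unadjusted p under 0.05 was reached by 26 members (5.5%, against 4.08% of all genes), 13 higher and 13 lower after radiation plus PhIP. The groups did not overlap for 12 members (2.54%, against 3.28% of all genes), 8 higher and 4 lower. Counts of signs below stand beside the 45.5% of all genes that were higher, and medians beside −0.018. For 16 of the 33 lists the median took the other sign when some 1 of the 8 arrays was left out, and for 17 it did not.

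No enzyme that activates or clears PhIP passed the threshold. Of 14 carcinogen metabolism genes tested, 8 were higher and 6 lower after radiation plus PhIP, with a median of 0.05. Sult1a1, a sulfotransferase able to activate hydroxylated PhIP, measured 8.69, 8.58, 8.62 and 8.10 after radiation plus PhIP, against 7.59, 7.77, 8.11 and 8.26 after radiation (0.57 ± 0.23). The fourth radiation plus PhIP cancer lay just under the third and the fourth radiation cancers, and the other 3 lay above all radiation cancers. Cyp1b1, an extrahepatic P450, ran from 7.64 to 10.14 after radiation plus PhIP, against 8.45 to 10.16 after radiation (−0.75 ± 0.64), and the glutathione transferase Gstt1 differed by 0.57 ± 0.41. Cyp1a1 and Cyp1a2 were under the filter on low values.

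Genes of DNA repair and of the p53 response showed small differences. In the 3 repair lists, 47 members were tested and 0 had an unadjusted p under 0.05, with differences from −0.27 to 0.48, 17 higher and 30 lower. Ddb2, the damage sensor of nucleotide excision repair, came nearest among the excision repair genes with 8.90, 9.38, 9.34 and 8.92 after radiation plus PhIP, against 8.45, 9.14, 9.12 and 8.54 after radiation (0.32 ± 0.16). Xrcc5, the Ku80 subunit of end joining, differed by −0.27 ± 0.13 and the recombination nuclease Mre11 by 0.48 ± 0.34. Mgmt, which removes alkyl groups from guanine, differed by 0.35 ± 0.29, and by 0.026 without radiation array 2. Of 14 p53 targets, 6 were higher and 8 lower (median −0.05), and Aen, Zmat3 and Bbc3 differed by −0.19 to −0.13. The 95% intervals of these 3 p53 targets lay between −0.55 and 0.23.

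Most cell cycle genes had lower means after radiation plus PhIP, by little. Of 27 members, 24 were lower and 3 higher with a median of −0.20, and 0 had an unadjusted p under 0.05. Ccne1, the cyclin of entry into S phase, measured 7.70, 7.52, 7.93 and 7.98 after radiation plus PhIP, against 9.00, 7.95, 8.52 and 8.15 after radiation (−0.62 ± 0.31). Cdc20 differed by −0.48 ± 0.44 and the mitotic kinesin Kif20a by −0.32 ± 0.32. The list mean was 9.06, 8.89, 9.37 and 9.14 on the radiation plus PhIP arrays, against 9.74, 8.74, 9.43 and 9.34 on the radiation arrays, which enclosed them. Without radiation array 1 the median was −0.06, and without radiation array 2 it was −0.36. Proliferation genes of a tumour move together, so these 24 are not 24 separate observations. In the RB pathway, 8 of 14 were higher, and Rb1 itself measured 9.91, 9.60, 9.49 and 9.32 after radiation plus PhIP, against 9.17, 9.18, 8.82 and 8.97 after radiation, with no overlap (0.55 ± 0.34).

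Growth factor and Ras pathway lists were close to balance. Of 17 RAS-MAPK output genes, 10 were higher and 7 lower (median 0.08). The immediate early gene Egr1 measured 11.86, 12.27, 11.99 and 12.38 after radiation plus PhIP, against 11.55, 11.12, 11.78 and 11.93 after radiation (0.53 ± 0.23), and the ETS factor Etv1 8.54, 8.95, 8.33 and 7.99 after radiation plus PhIP, against 9.59, 8.99, 8.82 and 9.37 after radiation (−0.74 ± 0.27). These members of the list thus lay on opposite sides. Of 13 EGF family genes, 7 were higher (median 0.01), with Egfr at 0.40 ± 0.25 and Erbb2 at −0.30 ± 0.24. Without radiation array 2, Egfr was at 0.11 and Erbb2 at −0.015. Of 13 genes of the IGF axis, 7 were higher (median 0.004), with the receptor substrate Irs2 at 0.61 ± 0.31 and Igf1r at 0.58 ± 0.37.

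In the Wnt list, 11 of 19 genes were higher and 8 lower (median 0.10). After Lef1, the secreted Wnt modulator Sfrp2 had the smallest p, with 11.93, 11.21, 11.85 and 11.82 after radiation plus PhIP, against 8.93, 10.23, 11.81 and 9.98 after radiation (1.47 ± 0.69). The third radiation cancer again lay among the radiation plus PhIP cancers. Tcf7l2, another β-catenin partner, measured 11.93, 12.15, 12.12 and 11.51 after radiation plus PhIP, against 11.35, 11.04, 11.87 and 11.60 after radiation (0.46 ± 0.24). Axin2, a common readout of β-catenin activity named here for that role and not for its rank by p, differed by 0.30. The list mean was 9.25, 9.19, 9.37 and 9.34 after radiation plus PhIP, against 8.72, 8.91, 9.29 and 9.26 after radiation, where the first and second arrays were low.

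Markers of the mammary epithelium lay on both sides. Of 18 luminal genes, 7 were higher and 11 lower (median −0.05). Esrp1, a splicing factor of epithelia, did not overlap, with 11.49, 11.40, 11.51 and 11.39 after radiation plus PhIP, against 11.64, 11.76, 11.63 and 11.53 after radiation, yet differed by only −0.19 ± 0.12. The stem cell factor receptor Kit, also a mast cell gene, measured 11.39, 11.25, 11.25 and 10.77 after radiation plus PhIP, against 10.06, 10.22, 10.90 and 9.99 after radiation (0.87 ± 0.54). Of 17 basal genes, 8 were higher (median −0.01), with Tp63, the master factor of basal cells, at 0.41 ± 0.27 and the smooth muscle actin Actg2 at −1.51 ± 1.01. Milk genes varied widely inside both groups. Of 13, 4 were higher and 9 lower (median −0.25), and Csn2, β-casein, measured 13.76, 9.71, 13.69 and 12.26 after radiation plus PhIP, against 14.00, 13.54, 11.99 and 13.64 after radiation. The second radiation plus PhIP cancer was the lowest of the 8 for Csn2, as for Csn1s1 at 11.01. Wap, whey acidic protein, chosen after its values were seen, measured 12.69, 5.91, 11.81 and 9.84 after radiation plus PhIP, against 13.67, 11.96, 8.46 and 10.88 after radiation.

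The hormone response list was split evenly, with 9 of 18 higher and 9 lower (median −0.014). Beside Stc2, the trefoil factor Tff1, an oestrogen target in human breast, measured 7.51, 7.88, 7.52 and 7.04 after radiation plus PhIP, against 8.08, 7.69, 7.89 and 7.99 after radiation (−0.42 ± 0.17). Ghr, the growth hormone receptor, lay on the other side without overlap, with 8.18, 8.51, 8.40 and 8.47 after radiation plus PhIP, against 8.04, 7.52, 7.70 and 7.54 after radiation (0.69 ± 0.31). Greb1, a further oestrogen target added after its values were seen, measured 8.64, 8.41, 8.12 and 8.36 after radiation plus PhIP, against 6.89, 6.32, 8.75 and 7.33 after radiation (1.06 ± 0.52). Socs2, a feedback inhibitor of growth hormone signalling, also added later, measured 5.81, 6.30, 6.59 and 5.96 after radiation plus PhIP, against 8.05, 7.35, 6.71 and 6.98 after radiation, with no overlap (−1.11 ± 0.61). It lay under the intensity filter of 125.8 in every radiation plus PhIP cancer, and other processing settings gave differences from −1.54 to −0.63.

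In the stroma, 15 of 20 fibroblast and matrix genes were higher (median 0.18), and the list mean was 10.25, 10.56, 10.91 and 10.95 after radiation plus PhIP, against 9.98, 10.77, 10.62 and 11.14 after radiation. The collagen genes Col5a2 (0.26 ± 0.18) and Col6a3 (0.39 ± 0.29) were on the higher side. Mfap5, a microfibril protein, was on the lower side with 6.17, 7.49, 7.07 and 9.13 after radiation plus PhIP, against 8.00, 9.90, 8.54 and 9.70 after radiation (−1.57 ± 0.67). The median of the list was 0.33 without radiation array 4 and −0.08 without radiation array 1. Among 18 proteases and inhibitors, 10 were higher (median 0.09). Adamts1, a matrix protease, measured 11.95, 11.96, 11.88 and 11.98 after radiation plus PhIP, against 10.92, 9.94, 11.59 and 11.71 after radiation, with no overlap (0.90 ± 0.39). The urokinase receptor Plaur differed by −0.54 ± 0.21 and urokinase itself, Plau, by −0.71 ± 0.38. Of 6 mesenchymal transition genes, 4 were higher (median 0.17, Zeb1 at 0.49 ± 0.26), and of 12 endothelial genes, 8 (median 0.09, Egfl7 at 0.37 ± 0.27).

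Fat cell genes were low in both groups and lower after radiation plus PhIP for 14 of 17 (median −0.20). The list mean was 7.87, 7.86, 7.85 and 7.96 after radiation plus PhIP, against 8.34, 8.37, 7.76 and 8.24 after radiation. The fatty acid transporter Cd36 measured 6.95, 6.38, 7.32 and 7.71 after radiation plus PhIP, against 9.73, 8.79, 6.76 and 8.26 after radiation (−1.29 ± 0.60), and Pparg, the master factor of fat cells, differed by −0.52 ± 0.27. The third radiation cancer was the exception, below the radiation plus PhIP cancers in the list mean. Of 14 skeletal muscle genes, 4 were higher and 10 lower (median −0.14), with Myh1 at −0.27 ± 0.14. Of 7 squamous genes, 2 were higher and 5 lower (median −0.09), with Cnfn at −0.47 ± 0.22.

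Of 7 B and plasma cell genes, 6 were higher after radiation plus PhIP (median 0.68), with list means of 9.58, 8.25, 8.37 and 8.20 after radiation plus PhIP, against 8.18, 7.76, 8.16 and 7.93 after radiation. All 4 list means after radiation plus PhIP exceeded all 4 after radiation, and the first radiation plus PhIP cancer was far above the other 3. Pou2af1, a B cell coactivator, measured 10.73, 6.64, 7.36 and 8.03 after radiation plus PhIP, against 6.90, 6.53, 6.66 and 6.60 after radiation (1.52 ± 0.47). Ms4a1, which encodes CD20, measured 9.30, 7.11, 6.78 and 6.97 after radiation plus PhIP, against 7.00, 6.49, 7.12 and 6.83 after radiation (0.68 ± 0.31). Cd22 was the member whose groups did not overlap, with 9.85, 8.81, 9.03 and 8.65 after radiation plus PhIP, against 8.25, 8.59, 8.53 and 8.19 after radiation (0.70 ± 0.33). Jchain, the joining chain of secreted antibodies, looked at later, measured 12.15, 9.96, 11.06 and 10.31 after radiation plus PhIP, against 10.20, 8.94, 10.20 and 10.08 after radiation. Without the first radiation plus PhIP array the median of the list was 0.42. The differences were then 0.67 for Pou2af1, 0.09 for Ms4a1, 0.44 for Cd22 and 0.59 for Jchain. Pou2af1 and Ms4a1 lay under the intensity filter of 125.8 on every radiation array. Ms4a1 also lay under it in every radiation plus PhIP cancer but the first.

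Class II histocompatibility genes, by which antigens are shown to helper T cells, were lower for 8 of 9 (median −0.40). Their list mean was 9.86, 11.71, 10.78 and 11.45 after radiation plus PhIP, against 10.76, 12.08, 11.14 and 11.72 after radiation, so the groups overlapped broadly. Without the first radiation plus PhIP array the median was −0.09. The transactivator Ciita differed by −0.35 ± 0.22 and RT1-DMa by −0.39 ± 0.28. RT1-Bb, looked at later, measured 9.31, 11.79, 10.71 and 11.65 after radiation plus PhIP, against 10.84, 12.92, 11.01 and 12.60 after radiation. Mast cell genes gave 2 of 11 higher and 9 lower (median −0.43), but their list mean was 10.08 in the fourth radiation plus PhIP cancer and 7.31 to 7.52 in the other 3, against 7.14, 9.86, 7.96 and 8.62 after radiation. Tpsab1, a mast cell tryptase, was at 10.13 and at 11.33 in those cancers, the fourth after radiation plus PhIP and the second after radiation.

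**Figure D4:**
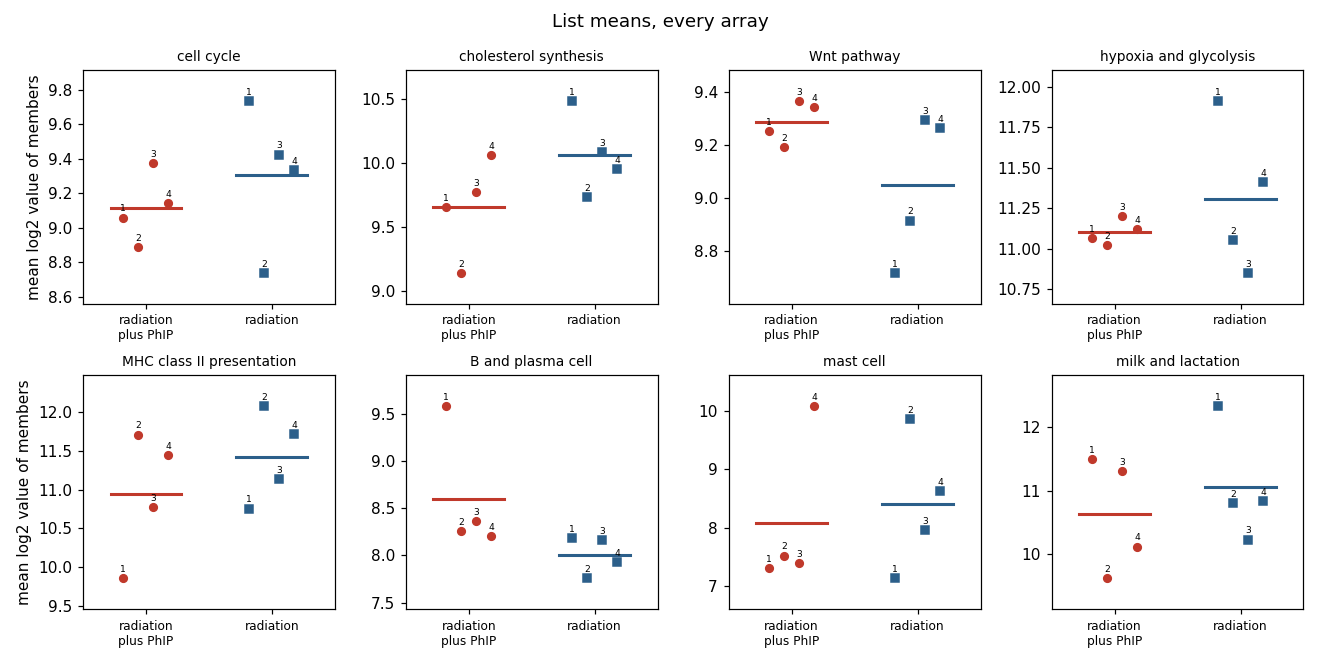
Each panel gives, for 1 gene list, the mean log2 value of its tested members on the 4 radiation plus PhIP arrays (red circles) and the 4 radiation arrays (blue squares), numbered by replicate, with bars at the group means. The first radiation plus PhIP array is high for B and plasma cell genes (9.58), the fourth for mast cell genes (10.08), and the first radiation array for cell cycle (9.74) and glycolysis (11.92).

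Most of the other immune lists were near balance, and the neutrophil list held only 3 tested genes. Of 22 interferon response genes, 14 were higher (median 0.07). Cxcl11, an interferon-induced chemokine that attracts T cells, measured 9.65, 9.73, 8.98 and 9.22 after radiation plus PhIP, against 8.17, 7.39, 8.69 and 8.00 after radiation without overlap (1.34 ± 0.45). Ifi44 (0.39 ± 0.25) and Irf9 (0.34 ± 0.23) differed less. Of 16 T and NK cell genes, 9 were higher (median 0.14), with granzyme A, Gzma, at 9.36, 9.37, 9.02 and 8.72 after radiation plus PhIP, against 7.25, 7.34, 9.02 and 8.43 after radiation (1.11 ± 0.77) and Cd2 at −0.72 ± 0.36. Of 17 macrophage genes, 6 were higher (median −0.05). All 3 neutrophil genes tested were higher (median 1.04), but S100a8 spread from 6.28 to 10.19 after radiation plus PhIP, against 5.58 to 9.33 after radiation. Of 10 acute phase and complement genes, 4 were higher (median −0.20), and A2m, α2-macroglobulin, measured 7.43, 8.63, 8.76 and 7.95 after radiation plus PhIP, against 6.52, 7.43, 7.23 and 7.53 after radiation (1.02 ± 0.39).

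Genes of lipid synthesis were mostly lower after radiation plus PhIP. Of 13 cholesterol synthesis genes, 2 were higher and 11 lower (median −0.35). The list held 3 of the members with an unadjusted limma p under 0.05, which 4.08% of all genes reached. As in the cell cycle list, the members need not be separate observations. Insig1, which holds the sterol sensor in the endoplasmic reticulum and is itself sterol-regulated, measured 8.86, 8.57, 9.29 and 9.74 after radiation plus PhIP, against 10.68, 9.57, 10.04 and 9.84 after radiation (−0.91 ± 0.31). Fdps, farnesyl diphosphate synthase, measured 10.50, 9.87, 10.64 and 11.41 after radiation plus PhIP, against 11.76, 11.03, 11.54 and 11.26 after radiation (−0.79 ± 0.35). Mvd, mevalonate decarboxylase, measured 8.15, 6.76, 8.04 and 8.55 after radiation plus PhIP, against 9.27, 7.81, 8.56 and 9.00 after radiation (−0.79 ± 0.35). In each gene the fourth radiation plus PhIP cancer reached the radiation range. The list mean was 9.66, 9.14, 9.78 and 10.06 after radiation plus PhIP, against 10.49, 9.73, 10.09 and 9.95 after radiation, and leaving out single arrays moved the median between −0.54 and −0.22.

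Of 16 fatty acid synthesis genes, 3 were higher and 13 lower (median −0.16). Acss2, which makes acetyl-CoA from acetate, measured 9.27, 8.52, 8.64 and 9.05 after radiation plus PhIP, against 10.55, 9.36, 9.42 and 9.41 after radiation with no overlap (−0.82 ± 0.29), and the elongase Elovl6 differed by −0.58 ± 0.28. Acacb, the acetyl-CoA carboxylase whose product restrains fatty acid oxidation, lay on the other side, with 9.10, 8.50, 8.65 and 7.51 after radiation plus PhIP, against 7.44, 6.69, 7.22 and 7.03 after radiation (1.35 ± 0.50). Of 21 hypoxia and glycolysis genes, 5 were higher and 16 lower (median −0.24). Adm, adrenomedullin, measured 5.84, 6.39, 6.55 and 7.18 after radiation plus PhIP, against 8.07, 7.46, 6.40 and 7.90 after radiation (−0.97 ± 0.40), while the aldolase Aldoc differed by 0.90 ± 0.45. The list mean was 11.92 in the first radiation cancer, and without that array the median was −0.05.

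**Figure D5:**
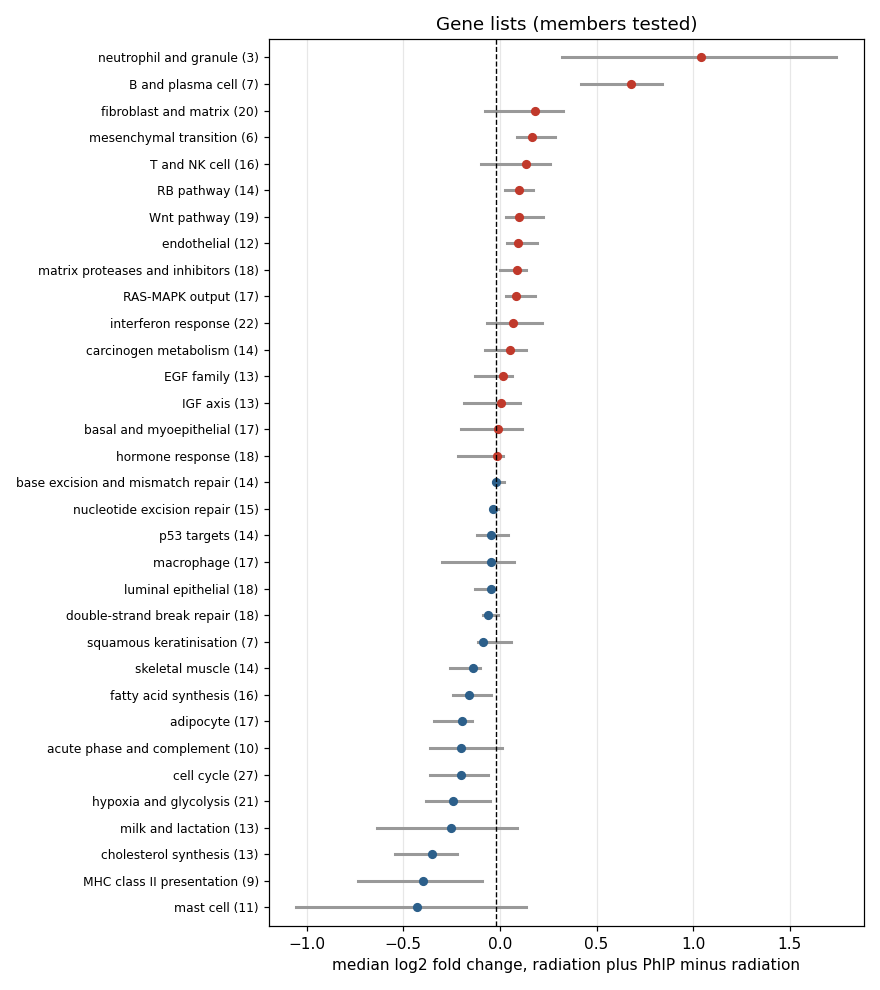
Points give the median log2 fold change (radiation plus PhIP minus radiation) of the members tested in each of the 33 lists, with their number in brackets, and bars the lowest and highest median when any 1 of the 8 arrays is left out. The dashed line is the median of all genes, −0.018. The bars of neutrophil, mast cell and milk genes are the widest.

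Whether PhIP was associated with the same differences without prior irradiation was tested as an interaction, the PhIP difference with radiation minus that without. No gene passed (0%, smallest adjusted p = 0.237 in limma), and 701 (5.95%) had an unadjusted p under 0.05. That number was 362 without PhIP replicate 2 and 1036 without PhIP replicate 4, 2 of the 3 cancers after PhIP alone, and 467 without radiation array 1. The PhIP difference without radiation, 3 PhIP cancers against 3 spontaneous cancers, shares no array with the first. There 1 gene passed (0.00849%) and 633 (5.38%) had an unadjusted p under 0.05. Over all genes the correlation of both differences was −0.045, a value across genes, which are not independent. Of all genes, 47.9% were higher after PhIP alone than in spontaneous cancers. Of the 12 higher genes described above, 10 were lower and 2 higher in that comparison, 3 with an unadjusted p under 0.05. Of the 12 lower genes, 7 were lower and 5 higher, and 0 had such a p.

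Lef1 and Vsnl1 had the smallest interaction p. Lef1 was 1.67 ± 0.40 higher after radiation plus PhIP than after radiation, while it measured 7.45, 9.27 and 10.37 after PhIP alone against 9.83, 10.66 and 10.34 in spontaneous cancers, a difference of −1.24 ± 0.46. The interaction was 2.92 ± 0.61 (adjusted p = 0.254 in limma). It passed without the third of these PhIP cancers, labelled replicate 4, at 3.59 (adjusted p = 0.00602), and was 2.13 without the first of them, labelled replicate 2. Vsnl1, a neuronal calcium sensor, was the gene that passed without radiation. It measured 7.04, 6.99 and 6.82 after PhIP alone, against 9.15, 11.42 and 8.82 in spontaneous cancers (−2.85 ± 0.44, adjusted p = 0.00534). With radiation it measured 6.24, 7.08, 7.20 and 7.20 after radiation plus PhIP, against 6.86, 6.81, 6.57 and 7.02 after radiation (0.12 ± 0.38). A second probe set gave −0.14 for this difference. Both irradiated groups lay near the level of PhIP alone. Every array of these groups was under the intensity filter of 125.8, where the added constant shrinks differences. The difference without radiation and the interaction thus rest on the higher spontaneous cancers, and the constant affects their size. The interaction of Vsnl1 was 2.96 ± 0.58 (adjusted p = 0.237) in the fit of all arrays and 3.45 without spontaneous array 3 (adjusted p = 0.023), and it was 2.15 without spontaneous array 2. Other processing settings gave interactions from 2.35 to 3.29.

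The next 3 genes of the interaction, like Lef1 and Vsnl1, had positive differences with radiation and negative ones without. For Vsnl1 the difference with radiation was only 0.12. Obp3, a lipocalin of a family with near-identical members, differed by 0.65 ± 0.31 with radiation and −1.46 ± 0.36 without. Spats2l differed by 0.78 ± 0.22 with radiation and −0.66 ± 0.25 without. RGD1309362 measured 9.84, 9.93, 9.54 and 9.35 after radiation plus PhIP against 8.76, 8.71, 8.86 and 9.30 after radiation (0.76 ± 0.27), and differed by −0.97 ± 0.31 without radiation. Each of these 3 interactions had adjusted p = 0.381. Armcx2 also passed here without radiation array 4.

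The last comparison set PhIP against MNU as the chemical added to 1 Gy, in cancers without H-ras mutation. No gene passed (0%, smallest adjusted p = 0.138 in limma), and 944 (8.02%) had an unadjusted p under 0.05. Wdr82, a subunit of the complex that methylates histone H3 at active promoters, measured 11.14, 11.00, 10.96 and 11.17 after radiation plus PhIP, against 10.44, 10.56, 10.63 and 10.60 after radiation plus MNU (0.51 ± 0.10). Vps37b, of the ESCRT sorting machinery, measured 9.93, 10.23, 10.23 and 10.19 after radiation plus PhIP, against 11.07, 10.61, 11.07 and 11.19 after radiation plus MNU (−0.84 ± 0.17). Neither overlapped. Slc48a1, a haem transporter, measured 9.20, 9.58, 9.52 and 9.50 after radiation plus PhIP, against 9.98, 10.34, 9.95 and 10.19 after radiation plus MNU (−0.67 ± 0.14). Gpnmb, a glycoprotein abundant in macrophages, measured 10.97, 11.37, 10.34 and 11.09 after radiation plus PhIP, against 12.27, 12.54, 12.32 and 13.05 after radiation plus MNU (−1.60 ± 0.36). The macrophage list as a whole had a median of −0.57 in this comparison, and its part in the difference of Gpnmb was not tested. Ighvl1 differed by 2.29 ± 0.51. The adjusted p of these 5 genes ran from 0.138 to 0.179, and the difference of Gpnmb from the radiation cancers was −0.61 ± 0.36.

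Fgf3, a fibroblast growth factor known as a site of mouse mammary tumour virus integration in mice, was looked at because it alone passed when the second radiation plus MNU array was left out. It measured 5.52, 5.51, 5.56 and 5.53 after radiation plus PhIP, against 10.11, 5.58, 11.31 and 9.88 after radiation plus MNU. As intensities, these were 2.78 to 4.29 after radiation plus PhIP, against 1062, 5.08, 2493 and 898 after radiation plus MNU. All 4 radiation plus PhIP values lay under the filter of 125.8 and under the added constant, so that constant sets the size of the difference and no fold or p is given. In radiation plus MNU, 3 of 4 cancers were high and the second was at the level of the radiation plus PhIP group. The radiation cancers were at 5.55 to 5.98, so none of the 8 cancers of the main comparison had a high level.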

How the data were processed

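Biotin-labelled cRNA from 36 samples was hybridised to single-colour oligonucleotide arrays, per the labels' protocols. The deposited table holds 1 linear intensity per probe set and array. The probe summary and array scaling are not given in the sources used. Without the outer 2% of probe sets at each end, every array of the deposited intensities averaged 500.1. Of 31099 probe sets, 20832 carried 1 gene symbol. Intensities were taken as log2(intensity + 42.8), where the constant is the 20th percentile, which understates differences of dim genes. Probe sets above 125.8 (the 40th percentile) on at least 3 arrays were kept and the brightest of each symbol taken, leaving 11773 genes. The number of arrays limits the precision.

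With limma 3.58.1 (lmFit, contrasts.fit and eBayes, R 4.3.3), 1 mean for each of the 10 groups was fitted over the 36 arrays, so that groups share 1 estimate of the spread, and p-values were adjusted over all genes by the Benjamini-Hochberg method (threshold 0.05). The fit was checked on simulated data with independent normal errors and 1 spread per gene in all groups. Such data lack unequal spreads between groups and genes that move together, so the check does not bear on these. The genes named are the 12 higher and 12 lower with the smallest p, the 6 and 6 largest differences without overlap, up to 3 members of each list by p, and the 5 smallest p of each further contrast; exceptions are marked in the text. The members and lists were chosen with earlier results of these data known. Alternatives were the added constant, the filter, quantile normalization or median centring, the arrays fitted, limma-trend, array weights, all probe sets, a block for the replicate number, and leaving out each array.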

Additional observations from a re-analysis of the deposited data

Results flagged for a closer look

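Within the groups of 4 cancers, 4 of 66 list means had 1 cancer far from the other 3, where chance gives about 1 in 20. The same held for 7 of 60 values of 30 genes, to which that rate does not apply, since they were picked for a small p or for groups without overlap. After radiation plus PhIP, the B and plasma cell list mean was 9.581 in the first cancer (nearest other 8.365) and the mast cell list mean 10.08 in the fourth (7.523). Stc2 was 5.736 (6.87) and Fndc1 7.589 (8.856) in the third cancer, both genes counted among the lower ones, and Tmem158 was 10.52 in the second (8.758). After radiation, the first cancer had an interferon response list mean of 10.36 (9.842). The second had a basal and myoepithelial list mean of 10.48 (11.14), Stc2 at 8.336 (7.778) and Serpina3n at 9.586 (8.299). RT1-A was 11.12 in the third (8.4) and Rptor 9.407 in the fourth (9.635).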

How the results depend on the processing

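The count of genes past the threshold between radiation plus PhIP and radiation was 0 under each of 13 other settings, with 361 to 847 genes at an unadjusted p under 0.05. Leaving out 1 array gave 0 to 1 genes (Tfpi without radiation 3, Armcx2 without radiation 4) and 351 to 638 at an unadjusted p under 0.05. The interaction gave 0 genes under 12 of 13 settings and 6 with array quality weights (Lef1, Chst8, Actr2, Vsnl1, Obp3 and Ptges3), a fit in which the weights stopped before full convergence. With these weights the interaction was 2.56 for Lef1, 2.71 for Vsnl1 and 1.99 for Obp3. Leaving out 1 array gave 0 to 1 genes there. Radiation plus PhIP against radiation plus MNU gave 2 genes with array quality weights (Vps37b and Wdr82), 0 under the other 12 settings and 0 to 1 without 1 array. Of the 145 genes named or eligible by rule in the first comparison, 75 had a difference that shrank by over 1.5 times or turned without some 1 array, 22 of them without radiation 2. Among these genes the sign turned in 6 cases, all with differences that had not passed: Wap to 0.21 and Bin2a to −0.10 without radiation plus PhIP 2, Krt10 to 0.021 without radiation plus PhIP 3 and to 0.055 without radiation 3, and Lcn2 to −0.033 and Tpsab1 to 0.041 without radiation 2. Over all arrays left out in turn, the highest or lowest values of these genes were −2.10 for Wap, 1.78 for Bin2a, −0.19 for Krt10, 0.29 for Lcn2 and −2.10 for Tpsab1. The cause was not tested. The same-numbered arrays of both groups did not pair by the labels, and their deviations correlated between −0.084 and 0.238, with 1 of 4 arrays closest to its own number. With the replicate number as a replicate block, 0 genes passed in each of the 3 comparisons. Dim genes are limited by signal over background, since the added constant shrinks their differences. Further examples under the intensity filter on every array of a group were Scx, Letm2, Pou2af1 and Ms4a1 after radiation and Adm after radiation plus PhIP. Over the other settings their differences ran from 0.62 to 1.22 for Scx and from 0.47 to 1.07 for Letm2. The range was 1.14 to 1.75 for Pou2af1, 0.50 to 0.79 for Ms4a1 and −1.27 to −0.60 for Adm.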

Other observations

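Fgf3 was above the intensity filter of 125.8 on 3 of 4 arrays after radiation plus MNU without H-ras mutation, on 1 of 3 after PhIP without mutation and on 2 of 3 spontaneous cancers. It was under it on all 4 radiation plus PhIP arrays, all 4 radiation arrays, all 4 MNU cancers without H-ras mutation, all H-ras mutated cancers and the 3 normal tissues. Pou3f3, a transcription factor gene of the nervous system picked after its values were seen, measured 6.77, 6.50, 5.91 and 11.17 after radiation plus PhIP, against 10.15, 6.44, 10.64 and 6.49 after radiation. Bin2a, also picked after its values were seen, measured 6.39, 11.65, 6.14 and 5.99 after radiation plus PhIP, against 6.47, 6.35, 5.81 and 6.46 after radiation, so 1 radiation plus PhIP cancer was high. Tnfsf11, the RANK ligand through which progesterone acts on mammary epithelium, likewise picked later, ran from 5.57 to 8.21 after radiation plus PhIP and from 6.24 to 10.77 after radiation.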
